A study of Mus musculus with 42 samples.

Results

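The gene set described here consists of 10 Wnt ligands of the mouse: Wnt2, Wnt2b, Wnt4, Wnt5a, Wnt5b, Wnt6, Wnt7b, Wnt9a, Wnt10a and Wnt11. They were taken by name from all 12 expression tables of the study, which together name 19206 genes, and they are 10 of the 19 Wnt ligands that the mouse genome encodes. Of the other 9 ligands, 5 had a value in at least 1 table (Wnt3, Wnt7a, Wnt8b, Wnt10b and Wnt16). Wnt ligands are secreted, lipid-modified proteins that bind Frizzled receptors together with co-receptors such as Lrp5 and Lrp6 or Ror2. Some of them, Wnt2b among them, are best known for stabilising beta-catenin, and others, Wnt5a above all, for signalling without it. In the colon, stromal cells around the crypts are a main source of Wnt ligands, and the epithelial stem cells at the crypt base depend on Wnt signalling.

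The study asked how bone morphogenetic protein (BMP) signalling in stromal cells acts on mucus-producing cells of the large intestine, and it measured messenger RNA by sequencing in 42 libraries of 18 groups. Control mice (GWT) carried the tamoxifen-inducible Cre recombinase Gli1CreERT2. Knockout mice carried in addition loxP-flanked Smad4 (GS4) or loxP-flanked Alk3 (GA3), so that either gene was to be lost in cells that express Gli1, a gene of stromal cells below the epithelium. Smad4 encodes the shared mediator of BMP and TGF-beta signalling, and Alk3, listed in the tables as Bmpr1a, encodes a BMP receptor. All of these mice, controls included, received tamoxifen at 20 mg/ml by injection, under the skin according to the labels, 100 µl a day for 5 days, and cells were sorted on day 30. The paper gives another route, into the abdominal cavity (intraperitoneal). Sorted tdTomato-positive cells of the Gli1 lineage (GWTT, GS4T and GA3T, called stromal cells here) and sorted Muc2-mCherry-positive cells (GWTM2, GS4M2 and GA3M2, called goblet cells here) were taken from proximal colon and from distal colon, with 2 libraries in each of 12 groups. The goblet cells of knockout mice carry the deletion only where they derive from Gli1-expressing cells, since the Cre driver is that of the stroma. Wild-type colonic organoids were grown with EGF at 50 ng/ml, Noggin at 100 ng/ml, R-spondin1 at 500 ng/ml, 30% Wnt3a-conditioned medium and the GSK3 inhibitor CHIR at 2.5 µM. They were left untreated or given 10 nM of IL-1α with IL-1β (IL-1) or 10 nM of IL-17A for 12 h or 72 h, with 3 libraries in each of 6 groups. The Wnt3a, R-spondin1 and CHIR in the medium were shared by all 6 organoid groups, so ligands made by the organoids were measured on top of a supplied Wnt signal. The labels used here give no strain or age, and whether 1 mouse or several went into a library is not said in them. The p-values below therefore measure the spread between libraries.

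Depth, as the sum of reads on named genes, ran from 14222902 to 23686940 reads in the 12 stromal libraries, from 15647603 to 20783127 in the 12 goblet libraries and from 14815170 to 17665812 in the 18 organoid libraries. A normalized count is the number of reads on a gene divided by the size factor of its library within its table. Genes with a mean of at least 10 normalized counts in a comparison were tested with limma on log2 values, with p-values adjusted after Benjamini-Hochberg over every gene tested. A gene counts as called where the adjusted p lay under 0.05 and its log2 fold change reached 1 in size. Groups are said not to overlap where all libraries of 1 group lay above all of the other. With 2 libraries a group this is frequent without a real difference. Its share over all genes was not counted, so it is a description only. Values scaled to the depth of the library (CPM) were used between tables, and the same values per kilobase of exon (RPKM) between genes.

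The targeted genes were examined first. Smad4 had 1604 and 1673 normalized counts in proximal GWTT cells and 705 and 835 in proximal GS4T cells, a log2 fold change of −1.09 ± 0.12 (SE, n = 2 and 2, limma adjusted p = 0.0102). In distal cells Smad4 had 1781 and 1703 normalized counts in GWTT and 680 and 1171 in GS4T, and over both segments it fell by 1.03 ± 0.16 (SE, n = 4 and 4, adjusted p = 0.00276). Reads on Smad4 therefore remained in all 4 GS4T libraries. Bmpr1a had 2960 and 3220 normalized counts in proximal GWTT cells and 2233 and 1842 in proximal GA3T cells. In distal cells it had 3359 and 3485 in GWTT and 2203 and 2043 in GA3T, and it was not called in either segment. Gli1, the gene of the driver, stood apart in 2 libraries: GS4T proximal 2 held 24 Gli1 reads and GA3T proximal 2 held 42, while the other 10 stromal libraries held 621 to 1671. Calls of Wnt ligands are given below with and without these libraries, with fold changes for called ligands and for some of the others. Shares of the summed level and calls of other pathway genes are given with all libraries only.

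The control and organoid libraries need some remarks. The same 4 GWTT libraries serve as controls for GS4T and for GA3T, and the same 4 GWTM2 libraries serve for both goblet knockouts, so the 2 knockouts are not independent of each other in their values against control. In the organoids, untreated 72 h library 1 equals untreated 12 h library 2, and untreated 72 h library 4 equals untreated 12 h library 4, in all 14716 genes that both tables name, which leaves 40 distinct libraries among 42. Some organoid libraries of a group were also almost alike: the mean chi-square per gene was 3.43 between untreated 72 h libraries 2 and 4, 3.12 between IL-1 12 h libraries 3 and 4 and 3.46 between IL-17A 12 h libraries 3 and 4, against 28.6 to 235 for the other pairs within an organoid group. Whether these are repeats of 1 sample was not tested, so n = 3 may overstate the number of independent samples. By Xist and Y-linked reads all 4 GS4T libraries and 3 of the 4 GWTT libraries were female, GWTT proximal 1 was male, and GA3T held 1 male and 1 female library in each segment.

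Defining fibroblast markers were abundant in the stromal libraries: the 7 genes Col1a1, Col1a2, Col3a1, Dcn, Lum, Pdgfra and Vim summed to 41779 to 58130 CPM, with Col3a1 highest, against 0.575 to 29.8 CPM in goblet libraries. Goblet markers (8 genes, Muc2 among them) summed to 9084 to 61479 CPM in goblet libraries. The stromal sorts also held reads of other cell types, in amounts that differed between genotypes. Epithelial markers (7 genes, Krt8 highest) summed to 13.7 to 541 CPM in the 4 GWTT libraries, 450 to 1078 in GA3T and 727 to 1681 in GS4T. Macrophage markers (8 genes, Lyz2 highest) summed to 183 to 703 CPM in GWTT, 712 to 1436 in GA3T and 881 to 2032 in GS4T. Neutrophil markers (5 genes) summed to 2.08 to 6.49 CPM in GWTT, 10.8 to 37.2 in GA3T and 39.2 to 165 in GS4T. Markers of lymphocytes and plasma cells (6 genes, Jchain highest) ran the other way, with 1626 to 4871 CPM in GWTT, 935 to 2018 in GA3T and 172 to 877 in GS4T. Telocytes, the crypt-near fibroblasts marked here by 6 genes with Pdgfra highest, gave 1200 to 1877 CPM in GWTT, 2363 to 2830 in GA3T and 1865 to 3078 in GS4T. The part of these cell types in the Wnt ligand values was not tested, and in bulk samples fewer cells of a type and less RNA per cell cannot be told apart.

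In control stromal cells Wnt2b, a ligand of the canonical pathway, was the most abundant of the 10 ligands in both segments. In the distal colon it reached 118 ± 5.08 RPKM (SD, n = 2), followed by Wnt4 at 57.3 ± 2.64, Wnt5a at 28.2 ± 0.0723, Wnt5b at 22.3 ± 3.88 and Wnt2 at 7.68 ± 0.280. Wnt9a (3.24 and 4.80 RPKM) and Wnt11 (2.69 and 3.31) overlapped, and Wnt6 lay below both at 2.16 ± 0.288. The 5 ligands above Wnt9a did not overlap with their neighbours in this order. In the proximal colon Wnt2b reached 131 ± 5.09 RPKM (SD, n = 2). Wnt4 (11.3 and 20.8 RPKM), Wnt5a (10.6 and 13.6) and Wnt5b (10.9 and 11.7) formed a middle group whose neighbours overlapped. Below them came Wnt9a at 7.69 ± 1.16, Wnt11 at 4.36 ± 1.09, and Wnt2 at 1.60 ± 0.686 with Wnt6 at 0.952 ± 0.350, which overlapped. Wnt7b had 0 reads in all 4 control stromal libraries. Wnt10a had 0 in both proximal libraries and 1 and 4 reads in the distal ones. Control stromal cells thus carried reads of 8 ligands in every library and almost none of Wnt7b and Wnt10a.

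**Figure D1:**
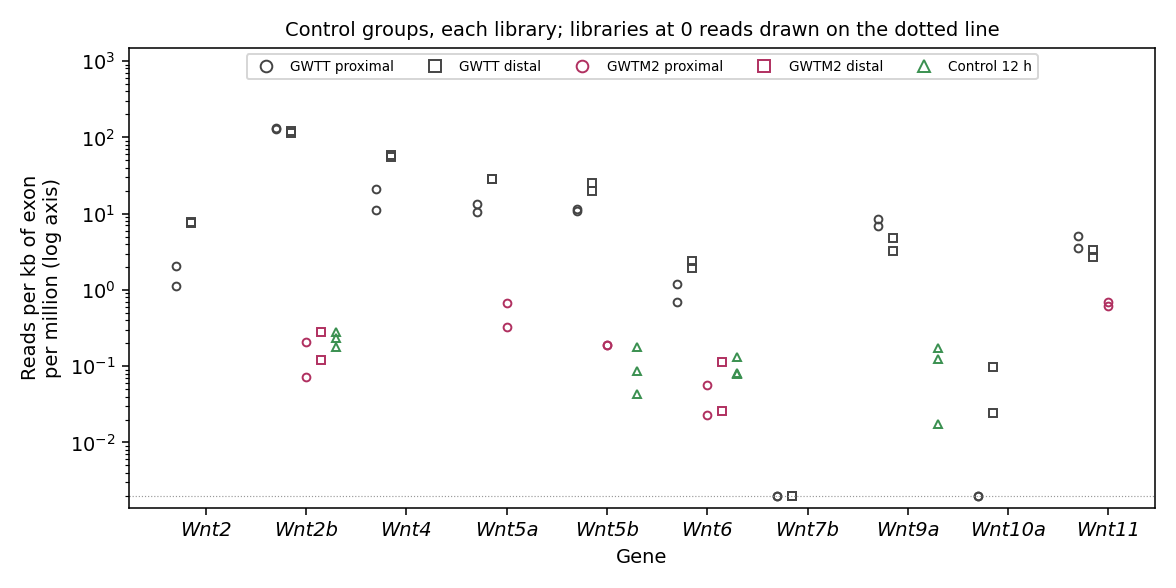
Level of each Wnt ligand in RPKM (log axis) in control stromal cells, control goblet cells and untreated 12 h organoids, with 1 point for each library and libraries with 0 reads on the dotted line. Wnt2b stands highest in stromal cells of both segments, and no goblet or organoid library reaches 1 RPKM for any ligand.

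The ligands were far lower in the other 2 kinds of sample. Summed over the members with a value, the 10 ligands reached 243 RPKM in distal and 185 RPKM in proximal GWTT cells, but 0.272 RPKM in distal and 1.52 RPKM in proximal GWTM2 goblet cells and 0.534 RPKM in untreated 12 h organoids. Wnt2b had 8089 to 9133 reads in the 4 GWTT libraries and 6 to 19 in the 4 GWTM2 libraries. Wnt6, a ligand known from epithelia and ducts elsewhere in the body, had 25 to 87 reads in GWTT and 1 to 4 in GWTM2. These were the 2 members tested, and both were called higher in GWTT, where 45.2% of 13046 genes were called in either direction. The log2 difference was 9.45 ± 0.34 (SE, n = 4 and 4, limma adjusted p = 1.34e-06) for Wnt2b and 3.94 ± 0.39 (adjusted p = 9.68e-05) for Wnt6, which met the minimum level only through the GWTT libraries and so had to be higher there, and scaling by TMM moved the median of all genes by 0.229. In proximal goblet cells Wnt11 (51 and 45 reads) and Wnt5a (50 and 84 reads) were the ligands with the most reads in GWTM2, at 0.653 ± 0.0448 and 0.499 ± 0.250 RPKM (SD, n = 2). The tables of distal goblet cells name neither of them. Of the members, Wnt2b is named in all 12 tables, Wnt6 in 10, Wnt9a in 8, Wnt5b in 7, Wnt5a and Wnt11 in 6, Wnt2, Wnt4 and Wnt7b in 4, and Wnt10a in 3. The tables hold no genes below a mean of 1.72 to 7.39 normalized counts, so a gene missing from a table may have had a few reads there.

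Within control stroma, 3 ligands were higher in the distal than in the proximal colon. Wnt2, a canonical ligand of mesenchyme, had 16.9 and 17.8 CPM in distal and 2.51 and 4.70 CPM in proximal GWTT cells, a log2 difference of −2.30 ± 0.34 proximal against distal (SE, n = 2 and 2, limma adjusted p = 0.0287). Wnt4 had 232 and 248 CPM in distal and 47.4 and 87.4 CPM in proximal cells, a difference of −1.90 ± 0.28 (adjusted p = 0.0268). Wnt5a had 220 and 221 CPM in distal and 82.6 and 106 CPM in proximal cells, a difference of −1.24 ± 0.14 (adjusted p = 0.0126). None of the 3 overlapped between segments. They were 3 of 8 members tested, against 2.31% of 15392 genes. Wnt5b had 66.4 and 51.9 CPM in distal and 30.9 and 28.9 in proximal cells and missed the fold threshold, at −0.97 ± 0.15 (adjusted p = 0.0317). Wnt2b, with 512 and 482 CPM distal and 534 and 564 proximal, differed by 0.14 ± 0.10 (adjusted p = 0.529). Wnt9a went the other way in its values, with 10.8 and 16.0 CPM distal and 28.3 and 22.9 proximal, a difference of 0.95 ± 0.24 that was not called (adjusted p = 0.111). Wnt6 (−1.19 ± 0.41) and Wnt11 (0.52 ± 0.24) were not called either. Wnt7b and Wnt10a were too low to be tested.

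Among other genes of the pathway, the secreted antagonists Wif1 (−3.09 ± 0.28), Sfrp2 (−2.53 ± 0.21) and Frzb (−1.37 ± 0.24) were lower in proximal than in distal control stroma, and Dkk2, an antagonist that binds Lrp co-receptors, was higher (2.75 ± 0.42), 4 of 8 antagonists tested. Rspo3, an R-spondin that strengthens Wnt signals at crypts, was higher in proximal cells (1.77 ± 0.17), as were the receptors Fzd4 (1.27 ± 0.19) and Ror1 (1.14 ± 0.10). Telocyte markers were lower in proximal cells for 4 of 6 genes, smooth muscle markers for 3 of 6 and macrophage markers for 3 of 8, and Cd81-positive fibroblast markers were higher for 2 of 5. The 3 ligand calls were lost when any 1 of the 4 libraries was left out, with fold changes of Wnt2 −1.86 to −2.74, Wnt4 −1.46 to −2.34 and Wnt5a −1.06 to −1.42. They were also lost when library sex was added as a term, where GWTT proximal 1 was the only male library. All 3 ligands stayed lower in proximal cells with that term. With all 12 stromal libraries and genotype as a term, Wnt2 alone was called (−1.77), while Wnt4 gave −0.89 (adjusted p = 0.323) and Wnt5a −0.74 (adjusted p = 0.108). Calls over all genes went the same way, from 356 to 10, 12, 0 and 2 when 1 library was left out and to 0 with the sex term, so the calls of antagonists, receptors and markers rest on the same 4 libraries.

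**Figure D2:**
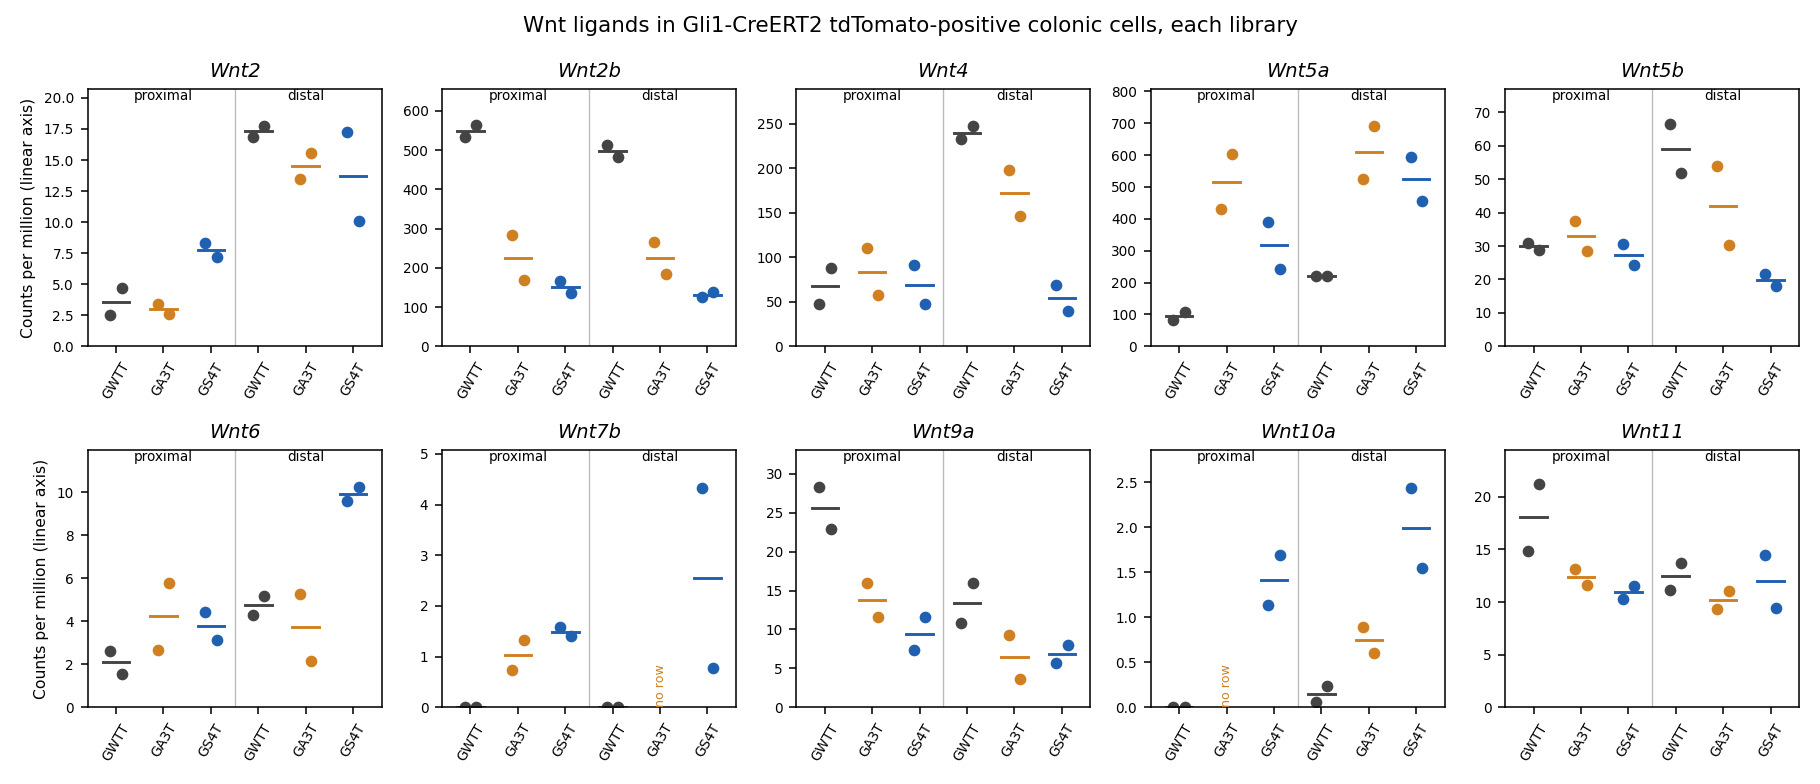
CPM of each Wnt ligand in every stromal library, by segment and genotype (GWTT control, GA3T Alk3 knockout, GS4T Smad4 knockout), with 1 point for each library and bars for the mean of 2 libraries on linear axes. Wnt2b is lower and Wnt5a higher in all 8 knockout libraries than in the control libraries of the same segment.

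Loss of Smad4 went with a changed set of ligands in proximal stromal cells. Wnt2b had 9028 and 9358 normalized counts in GWTT and 2697 and 2312 in GS4T, so that both knockout libraries lay far below both controls, at 0.272 times the control mean. Wnt5a had 1397 and 1761 normalized counts in GWTT and 6374 and 4168 in GS4T, 3.34 times the control mean and without overlap. Wnt2b fell by a log2 of 1.88 ± 0.12 (SE, n = 2 and 2, limma adjusted p = 0.00431) and Wnt5a rose by 1.72 ± 0.24 (adjusted p = 0.0150). Wnt9a, a canonical ligand known from joints and liver, had 479 and 379 normalized counts in GWTT and 119 and 197 in GS4T, a fall of 1.47 ± 0.30 (adjusted p = 0.0347). Wnt7b and Wnt10a, ligands known mostly from epithelia, appeared where the controls had none. Both were called (4.69 ± 0.81, adjusted p = 0.0241, and 4.59 ± 0.84, adjusted p = 0.0276), and a pseudocount of 10 gave 1.80 and 1.73. Wnt7b had 0 and 0 reads in proximal GWTT and 28 and 24 in proximal GS4T cells, at least 16.2-fold higher against a floor of 3 reads over the control group. Wnt10a had 0 and 0 reads in GWTT and 20 and 29 in GS4T, at least 15.3-fold higher. Intervals and floors of this kind cover counting error only.

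In all, 5 of 10 members were called in proximal GS4T cells, 3 higher and 2 lower, against 9.59% of 15298 genes. Wnt7b and Wnt10a passed the filter on low values only through the knockout libraries, so they had to differ, and the count is a description. Wnt2, with 42.4 and 77.9 normalized counts in GWTT and 136 and 123 in GS4T, did not overlap but was not called (1.15 ± 0.38, adjusted p = 0.105). Wnt11, known for signalling without beta-catenin, had 251 and 352 in GWTT and 168 and 197 in GS4T and was not called either (−0.71 ± 0.24, adjusted p = 0.108). Wnt6 gave 0.86 ± 0.45, and Wnt4 (0.02 ± 0.40) and Wnt5b (−0.14 ± 0.15) overlapped between the groups. Without GS4T proximal 2, the library with 24 Gli1 reads, 8 members could be tested and 2 were called, Wnt2b at −1.77 and Wnt5a at 2.02, while Wnt9a gave −1.83 (adjusted p = 0.0650), and Wnt4 gave 0.47, Wnt5b −0.01 and none of the others was called. Without either GS4T library Wnt7b and Wnt10a fell below the filter. Without GS4T proximal 1 only Wnt2b was called, with Wnt5a at 1.41 (adjusted p = 0.0772) and Wnt9a at −1.11 (adjusted p = 0.131), and Wnt9a also lost its call without GWTT proximal 1 or with sex as a term (−1.30 in both).

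In distal stromal cells more ligands passed the test. Wnt2b had 8404 and 7831 normalized counts in GWTT and 2050 and 2297 in GS4T, a fall of 1.90 ± 0.11 (SE, n = 2 and 2, limma adjusted p = 0.000942). Wnt4, a ligand with canonical and other signalling depending on the tissue, had 3811 and 4027 in GWTT and 1136 and 665 in GS4T, a fall of 2.17 ± 0.25 (adjusted p = 0.00424). Wnt5b, the close relative of Wnt5a, had 1089 and 842 in GWTT and 355 and 301 in GS4T, a fall of 1.55 ± 0.18 (adjusted p = 0.00437). The 3 ligands that fell did so in both knockout libraries, to 0.268, 0.230 and 0.340 times the control mean. Wnt5a had 3616 and 3593 normalized counts in GWTT and 9743 and 7634 in GS4T, a rise of 1.26 ± 0.15 (adjusted p = 0.00437). Wnt6 had 70.4 and 84.2 in GWTT and 158 and 171 in GS4T, a rise of 1.08 ± 0.26 (adjusted p = 0.0350). The 2 relatives Wnt5a and Wnt5b thus moved in opposite directions in the same distal cells.

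Wnt7b had 0 and 0 reads in distal GWTT cells and 80 and 11 in distal GS4T cells, at least 31.1-fold higher. Most of the reads lay in GS4T distal 1, so this bound rests mainly on that library. Wnt10a had 1 and 4 reads in GWTT and 45 and 22 in GS4T, a ratio of 13.7 with an exact 95% counting interval of 5.6 to 43.7. The tests gave 4.98 ± 1.07 for Wnt7b (adjusted p = 0.0254) and 3.42 ± 0.78 for Wnt10a (adjusted p = 0.0299). Of 10 members tested, 7 were called, 4 higher and 3 lower, against 14% of 15242 genes, and again Wnt7b and Wnt10a were tested only because of the knockout libraries. Wnt9a, with 177 and 259 normalized counts in GWTT and 93.9 and 134 in GS4T, was not called (−0.93 ± 0.31, adjusted p = 0.0797). Wnt2 (−0.37 ± 0.28) and Wnt11 (−0.06 ± 0.27) overlapped between the groups. The calls of Wnt2b, Wnt4, Wnt5a and Wnt5b were kept without any 1 of the 4 libraries, and Wnt6 lost its call without each of them (0.96 to 1.21, adjusted p 0.0910 to 0.183). Wnt10a lost it without GWTT distal 1, GS4T distal 1 or GS4T distal 2 (2.76, 3.11 and 3.72) and Wnt7b without either control (4.98 in both) or with a pseudocount of 10 (2.11, where Wnt10a gave 1.78), and without GS4T distal 1 it fell below the filter, so that 4 members were called without GWTT distal 1 and 4 without GS4T distal 1.

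**Figure D3:**
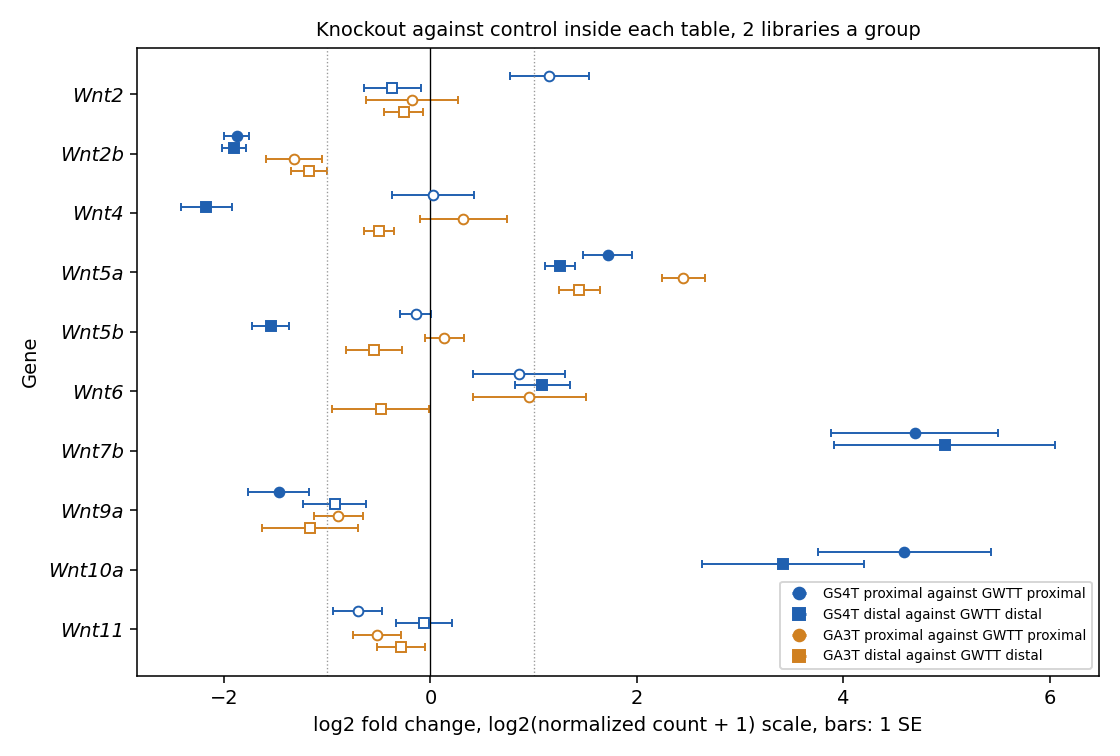
Log2 fold change of each Wnt ligand against GWTT cells of the same segment, with bars of 1 SE (limma, n = 2 and 2 libraries), filled points for called genes and dotted lines at the fold threshold. Wnt2b lies below 0 and Wnt5a above 0 in the 4 comparisons, both called in GS4T and neither in GA3T.

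Taking both segments together with the table as a term, Wnt2b fell in GS4T cells by 1.89 ± 0.08 (SE, n = 4 and 4, limma adjusted p = 2.85e-05), with 4 of 4 knockout libraries below the controls of their segment. Wnt5a rose by 1.49 ± 0.16 (adjusted p = 0.000511) and Wnt9a fell by 1.20 ± 0.23 (adjusted p = 0.00612), each in 4 of 4 libraries. Wnt4 fell by 1.07 ± 0.27 (adjusted p = 0.0187), a mean of a distal fall and no proximal difference, and Wnt7b and Wnt10a were called higher. That made 6 of 10 members, 3 in each direction, against 16.9% of 15293 genes, a description again, since Wnt7b and Wnt10a passed the filter only through the knockout libraries. Wnt5b (−0.85 ± 0.12, adjusted p = 0.00191) and Wnt6 (0.97 ± 0.25, adjusted p = 0.0178) passed on the adjusted p but not on the fold. Wnt2 (0.39 ± 0.25) and Wnt11 (−0.38 ± 0.19) were not called. Without the library low in Gli1, Wnt2b (−1.84), Wnt5a (1.64), Wnt9a (−1.38), Wnt7b (4.86) and Wnt10a (3.85) were still called and Wnt6 was called (1.08), while Wnt4 was not (−0.85, adjusted p = 0.0540). Wnt4 also lost its call without GWTT proximal 2 (−0.86), GWTT distal 1 (−1.09), GWTT distal 2 (−1.05) or GS4T distal 2 (−0.88).

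Whether the Smad4 effect differed between segments was tested as the difference of both fold changes. No member passed in limma, 0 of 10 against 0.183% of 15293 genes. At an unadjusted p under 0.05 with the fold there were 3 members, all with the lower value in distal cells, against 5.21% of all genes. They were Wnt4 (2.19 ± 0.55, adjusted p = 0.188), Wnt2 (1.52 ± 0.49, adjusted p = 0.329) and Wnt5b (1.41 ± 0.24, adjusted p = 0.0975). The calls of Wnt4 and Wnt5b in distal but not in proximal cells are therefore not shown to be a difference between segments. The other members gave 0.02 ± 0.16 (Wnt2b), 0.46 ± 0.31 (Wnt5a), −0.22 ± 0.49 (Wnt6), −0.29 ± 1.30 (Wnt7b), −0.54 ± 0.46 (Wnt9a), 1.18 ± 1.05 (Wnt10a) and −0.64 ± 0.38 (Wnt11). Without the library low in Gli1 no member was called either, and Wnt5a gave 0.76, Wnt9a −0.90, Wnt4 2.64 and Wnt2b 0.13.

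Alk3 is 1 of several receptors that bind BMP ligands. In GA3T cells the values of Wnt5a lay above and those of Wnt2b below the controls in both segments. In proximal cells Wnt5a had 1470 and 1852 normalized counts in GWTT and 7684 and 10578 in GA3T, 5.50 times the control mean. Wnt2b had 9499 and 9840 in GWTT and 5063 and 2951 in GA3T, 0.414 times the control mean. Neither gene overlapped between the groups. In limma Wnt5a gave 2.45 ± 0.21 (SE, n = 2 and 2, adjusted p = 0.0503), just past the threshold, and Wnt2b −1.32 ± 0.27 (adjusted p = 0.104). The count called was 0 of 8, where 0.0522% of 15327 genes were called. At an unadjusted p with the fold it was 2, these same genes, against 9.45% of all genes, while edgeR called 0 members and 0% of all genes, and DESeq2 called these 2 members and 6.32%. Wnt5a was also called with a pseudocount of 10, without a filter, with a mean of at least 50 and with sex as a term (adjusted p 0.0218 to 0.0489). The genes called in these settings were 79 of 15327, 35 of 15954, 57 of 12590 and 234 of 15327. Without GA3T proximal 1 Wnt5a gave 2.68 and Wnt2b −1.71, with GA3T proximal 2 as the only knockout library. Without GA3T proximal 2, the library with 42 Gli1 reads, Wnt5a gave 2.22 (adjusted p = 0.0878) and Wnt2b −0.93, and Wnt4 (0.79), Wnt5b (0.35), Wnt6 (0.43) and Wnt2 (0.02) were not called either.

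Of the other members in proximal GA3T cells, Wnt9a had 504 and 399 normalized counts in GWTT and 285 and 204 in GA3T (−0.89 ± 0.24, adjusted p = 0.146), without overlap. Wnt7b had 0 and 0 reads in GWTT and 13 and 28 in GA3T, at least 11.4-fold higher, but its mean lay below the filter. Wnt10a is not named in that table. Wnt11 (−0.52 ± 0.24) and Wnt6 (0.96 ± 0.54) did not overlap and were not called. Wnt4 (0.32 ± 0.42), Wnt5b (0.13 ± 0.19) and Wnt2 (−0.18 ± 0.45) overlapped between the groups.

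In distal cells Wnt5a had 4125 and 4089 normalized counts in GWTT and 9346 and 13330 in GA3T, 2.76 times the control mean. Wnt2b had 9587 and 8911 in GWTT and 4741 and 3535 in GA3T, 0.447 times the control mean. The groups did not overlap, but limma called 0 of 8 members and 0% of 15395 genes, with Wnt5a at 1.44 ± 0.20 (SE, n = 2 and 2, adjusted p = 0.0948) and Wnt2b at −1.17 ± 0.18 (adjusted p = 0.0961). At an unadjusted p with the fold these 2 genes passed, against 7.77% of all genes, edgeR called 0 members and 0% of genes, and DESeq2 called both and 4.97%. With sex as a term Wnt5a gave 1.70 and Wnt2b −1.39. GA3T distal 1 was the only male library there, so that fit rests on GA3T distal 2 as the only knockout library. Without GA3T distal 1, the male library, the fold changes were the same. No member was called without GA3T distal 2 or without either control. Wnt9a had 202 and 295 normalized counts in GWTT and 166 and 70.2 in GA3T (−1.17 ± 0.46, adjusted p = 0.268). Wnt10a had 1 and 4 reads in GWTT and 21 and 11 in GA3T, a ratio of 5.13 with a counting interval of 1.99 to 16.9, and lay below the filter. Wnt7b is not named in that table. Wnt4 (−0.50 ± 0.14) and Wnt2 (−0.26 ± 0.19) were not called, although they, like Wnt9a, did not overlap between the groups. Wnt5b (−0.54 ± 0.27), Wnt6 (−0.48 ± 0.47) and Wnt11 (−0.28 ± 0.23) overlapped and were not called.

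Over both segments the Alk3 knockout had 2 of 8 members called, against 5.21% of 15282 genes. Wnt5a rose by 1.95 ± 0.16 (SE, n = 4 and 4, limma adjusted p = 0.00287) and Wnt2b fell by 1.25 ± 0.18 (adjusted p = 0.0129), each in 4 of 4 libraries. Wnt9a passed the fold but not the adjusted p (−1.03 ± 0.30, adjusted p = 0.0627). The remaining members Wnt2, Wnt4, Wnt5b, Wnt6 and Wnt11 lay between −0.40 and 0.24, and Wnt7b and Wnt10a are each named in 1 segment only. Both calls were kept without the library low in Gli1 (Wnt5a 1.83, Wnt2b −1.05), and Wnt2b lost its call without GWTT distal 1 (−1.22, adjusted p = 0.0577) or GWTT distal 2 (−1.27, adjusted p = 0.0610). Without the library low in Gli1, Wnt4 gave 0.15 and Wnt6 −0.03, against −0.09 and 0.24 with all libraries. Wnt5b gave −0.10 and Wnt2 −0.12, against −0.21 and −0.22. The difference of the Alk3 effect between segments was called for 0 of 8 members and 0% of genes in limma. At an unadjusted p with the fold it included 1 member, Wnt5a (1.01 ± 0.31, adjusted p = 0.588), against 3.17% of all genes, and without the library low in Gli1 no member was called and Wnt5a gave 0.78 and Wnt4 1.29 (unadjusted p = 0.0233).

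Set directly against each other, GS4T and GA3T cells shared no control and were compared in CPM with the segment as a term. In limma 0 of 8 members were called, against 1.56% of 15153 genes. At an unadjusted p with the fold the count was also 0, against 6.32% of all genes, and edgeR and DESeq2 called 0 members, with 228 of 15085 and 727 of 15235 genes called. Wnt4 had the widest gap, −0.99 ± 0.30 (SE, n = 4 and 4, adjusted p = 0.121), with 39.8 to 91.5 CPM in GS4T and 58.1 to 198 CPM in GA3T. Wnt2b had 125 to 166 CPM in GS4T and 168 to 283 CPM in GA3T, a difference of −0.65 ± 0.19 (adjusted p = 0.115) although the libraries did not overlap. Wnt5a had 244 to 594 CPM in GS4T and 430 to 691 in GA3T (−0.46 ± 0.20, adjusted p = 0.233). Wnt2 (0.60 ± 0.22), Wnt5b (−0.65 ± 0.21), Wnt6 (0.72 ± 0.36), Wnt9a (−0.18 ± 0.33) and Wnt11 (0.01 ± 0.18) were not called, and Wnt7b and Wnt10a are not named in all of these tables. Without GA3T proximal 2 Wnt2b gave −0.84 (adjusted p = 0.0558) and Wnt4 −1.22 (adjusted p = 0.0912), without GS4T proximal 2 they gave −0.58 and −0.75, and no member was called without either or both of these libraries low in Gli1. Without both, Wnt5a gave −0.17, Wnt9a −0.45 and Wnt6 1.11. Wnt16, a ligand outside the 10, was lower in GS4T than in GA3T (−3.15 ± 0.57, adjusted p = 0.0405). Its mean was 0.0540 CPM in distal and 0.572 in proximal GS4T cells, against 4.66 and 2.07 in GA3T. Wnt16 passed the filter only through the GA3T libraries, so it had to be lower in GS4T. Its reads in the distal GA3T libraries were far apart, at 38 and 171.

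On the RPKM scale the order of Wnt2b and Wnt5a differed between control and knockouts in the distal colon and was mixed in the proximal colon. Sums hold all 10 ligands except in GA3T, where Wnt7b is not named for distal cells and Wnt10a not for proximal ones. In distal stromal cells Wnt2b made up 48.7% of the summed level in GWTT, 26.4% in GA3T and 23.4% in GS4T, while Wnt5a made up 11.6%, 39.1% and 49.3%. In proximal cells Wnt2b made up 70.9%, 32.6% and 31.6% in the same order of genotypes, and Wnt5a 6.51%, 41.2% and 35.0%. Wnt5a thus had the higher mean in all 4 knockout groups and Wnt2b in both control groups, but Wnt2b was still the most abundant in GA3T proximal 1 (38.8% against 31.7%) and in GS4T proximal 2 (33.7% against 32.6%). Wnt4 made up 23.6% of the sum in distal GWTT cells and 9.41% in distal GS4T cells. The summed level itself was 243, 201.1 and 136 RPKM in distal GWTT, GA3T and GS4T cells and 185, 163 and 115 RPKM in proximal ones. Wnt7b and Wnt10a each stayed under 1% of the sum in GS4T cells, at 0.270% to 0.586% by group and 0.129% to 0.717% by library.

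Genes that receive and modify Wnt signals were examined as lists, whose counts stand beside 9.59% of all genes called in proximal and 14% in distal GS4T cells, so that 1 of 7 to 1 of 10 called is near or below the share of all genes. In proximal cells 1467 genes were called with all libraries. Far fewer were called without either GS4T library and more without either GWTT library, so calls there depend on single libraries. Of 9 Frizzled receptors tested in proximal GS4T cells, Fzd4 (−2.18 ± 0.19) and Fzd7 (−1.29 ± 0.26) fell and Fzd2 rose (1.03 ± 0.23), and in distal cells Fzd4 (−1.08 ± 0.12) and Fzd7 (−1.38 ± 0.11) fell. Of 6 co-receptors and other receptors, Ptk7 rose in proximal cells (1.05 ± 0.13) and Ror2, a receptor for Wnt5a, rose in distal cells (1.78 ± 0.17) and over both segments (1.29 ± 0.11). The secretion genes Wls and Porcn, which all Wnt ligands need for release, were not called in either knockout. Secreted antagonists held some large changes. Frzb, which binds Wnt proteins outside the cell, rose in GS4T by 4.62 ± 0.19 in proximal and 3.61 ± 0.14 in distal cells (limma adjusted p = 0.00358 and 0.000388, n = 2 and 2). Wif1 rose by 2.59 ± 0.31 and 1.10 ± 0.18, and in distal cells Dkk2 rose (3.23 ± 0.65) while Sfrp2 (−1.59 ± 0.18) and Sfrp4 (−1.34 ± 0.18) fell. Over both segments 3 of 7 antagonists were higher and 1 lower in GS4T, against 16.9% of all genes called, with a list median of 0.59 against 0.01 for all genes.

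R-spondins and their receptors gave 1 of 7 genes called in proximal GS4T cells, Rspo2 (−3.90 ± 0.60), and 0 of 7 in distal ones. Over both segments Rspo2 fell (−2.03 ± 0.46) and Rnf43, a ubiquitin ligase that removes Frizzled receptors, rose (2.04 ± 0.51). Of the Wnt target genes, Apcdd1 (−1.38 ± 0.19) and Myc (−1.55 ± 0.32) fell in proximal GS4T cells, 2 of 8 tested, and Lef1 rose in distal cells (1.02 ± 0.26), 1 of 9. Axin2 was not among the called genes of any stromal comparison. Of the intracellular pathway genes only Tcf7l1 in distal GS4T cells was called (−1.17 ± 0.15), 1 of 10. Wnt16 fell in distal GS4T cells from 78.2 and 103 normalized counts to 1.77 and 0, and it passed the filter only through the control libraries, so it had to be lower. BMP target genes, the direct readout of the pathway that was deleted, fell for 3 of 7 genes in proximal cells (Id2, Id4 and Bambi) and 5 of 7 in distal cells (Id1, Id2, Id3, Id4 and Bambi). Their median over both segments was −1.02, and Id4 fell by 2.76 ± 0.24.

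In GA3T cells the same lists were described over both segments, since single segments had 0 calls in them. Id2 (−1.31 ± 0.16), Id3 (−1.11 ± 0.18), Id4 (−1.91 ± 0.35) and Bambi (−1.05 ± 0.18) fell, 4 of 7 BMP target genes, against 5.21% of all genes. Calls over all genes went from 796 to between 163 and 938 when 1 library was left out. Frzb rose by 2.44 ± 0.32, Sfrp2 rose by 1.45 ± 0.34 and Sfrp4 fell by 1.31 ± 0.29, 3 of 7 antagonists tested. Rnf43 rose (1.94 ± 0.42) and the target gene Apcdd1 fell (−1.09 ± 0.14). No Frizzled receptor or co-receptor was called. Between both knockouts, Frzb (1.67 ± 0.29) and Wif1 (1.31 ± 0.22) were higher and Sfrp2 (−2.41 ± 0.31) lower in GS4T than in GA3T cells.

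Markers of other cells were called in the same comparisons, where the share of all genes was 16.9% in GS4T and 5.21% in GA3T over both segments. Over both segments in GS4T, all 7 epithelial markers were called higher (median 3.78), as were 8 of 8 macrophage markers (1.58), 5 of 5 neutrophil markers (4.23) and 3 of 4 pericyte markers (1.27), while 4 of 5 Cd81-positive fibroblast markers (−1.31) and 3 of 5 lymphocyte and plasma cell markers (−2.31) were lower. The 5 neutrophil markers summed to only 2.08 to 6.49 CPM in GWTT, so some may have passed the filter only through the GS4T libraries. In GA3T, 5 of 8 macrophage, 2 of 4 neutrophil, 2 of 6 telocyte and 1 of 7 epithelial markers were higher. Wnt7b and Wnt10a, the ligands that appeared in knockout stroma, are named in no goblet table, where they may have had a few reads. Wnt7b is named in 1 organoid table, at 0 to 6 reads a library. Wnt2b and Wnt5a reached at most 1.34 and 5.29 CPM in any goblet library. Whether cells other than fibroblasts carried the change in any ligand was not tested.

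In goblet cells sorted from the same knockouts the ligands stayed low. In proximal GS4M2 cells 3 members could be tested and limma called 0, against 0.325% of 13223 genes. Wnt11 had 43.8 and 48.6 normalized counts in GWTM2 and 15.8 and 2.04 in GS4M2, at −2.72 ± 0.82 (SE, n = 2 and 2, adjusted p = 0.196). It was the 1 member at an unadjusted p with the fold, against 4.28% of all genes. With a mean of 8.90 in GS4M2, Wnt11 passed the filter only through the GWTM2 libraries. It therefore had to be lower, and the values are a description. Wnt5a (42.9 and 90.7 against 78.8 and 86.5) overlapped, and Wnt2b had 5.15 and 15.1 against 22.1 and 20.4 (1.16 ± 0.60). In distal GS4M2 cells Wnt2b alone was named, with 9.03 and 21.5 normalized counts in GWTM2 and 10.4 and 7.35 in GS4M2, and 0 of 1 was called by limma against 0% of genes, or 0 at an unadjusted p against 2.7%.

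Goblet cells of the Alk3 knockout gave 0 of 2 members called in the proximal colon, against 0.09% of 13329 genes, and 0 at an unadjusted p with the fold, against 6.83%. Wnt5a had 45.7 and 95.9 normalized counts in GWTM2 and 29.2 and 50.7 in GA3M2, and Wnt11 46.6 and 51.4 against 51.3 and 71.9. Wnt6, below the filter, had 1 and 2 reads in GWTM2 and 4 and 19 in GA3M2 in the proximal colon, and 1 and 4 against 8 and 11 in the distal colon. In the distal colon Wnt2b was the 1 member tested, with 8.64 and 20.8 normalized counts in GWTM2 and 9.79 and 3.83 in GA3M2. It was not called (0 of 1 against 0% of genes, and 0 at an unadjusted p against 4.11%). In the 4 goblet comparisons edgeR and DESeq2 called 0 members as well, where edgeR called 0 to 51 and DESeq2 149 to 424 genes. The tested and named ligands had 1 to 85 reads in a goblet library, and GWTM2 held 1 female and 1 male library in each segment while all knockout goblet libraries were male.

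In organoids 3 to 5 members were named in a group, at 0 to 20 reads in each untreated library. Wnt2b had 17, 20 and 13 reads in untreated organoids at 12 h, 20, 2 and 17 with IL-1 and 21, 13 and 19 with IL-17A. With IL-1 for 12 h 0 of 1 member was called, against 0.0543% of 12896 genes, and 0 at an unadjusted p with the fold, against 0.923%. With IL-17A for 12 h it was 0 of 1 against 0.0386% of 12959 genes, and 0 at an unadjusted p against 1.08%. In both, edgeR (2 and 4 genes called in all) and DESeq2 (45 and 52) called 0 members, and Wnt6, Wnt9a and Wnt5b, where named, overlapped between treated and untreated libraries.

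After 72 h with IL-1, Wnt6 had 7.22, 26.9 and 50.5 normalized counts against 2.66, 2.86 and 2.54 in untreated organoids, from 6, 27 and 46 reads against 3 in each control. The 3 treated libraries lay above all controls but spread widely among themselves. The log2 fold change was 2.63 ± 0.74 (SE, n = 3 and 3, limma adjusted p = 0.0261), which made 1 of 2 members called, against 23% of 13006 genes. Wnt6 passed the filter only through the IL-1 libraries, so it had to differ and the values are a description. The call was lost without any 1 control (2.62, 2.66 and 2.6 without libraries 1, 2 and 4, adjusted p 0.0539 to 0.0739), without IL-1 library 2 (2.48, adjusted p = 0.0696) and without both controls that also stand at 12 h (2.56, adjusted p = 0.216) and with the replicate number as a block (2.01, adjusted p = 0.204), and without IL-1 library 3 Wnt6 fell below the filter. Wnt2b had 17.7, 12.4 and 11 normalized counts untreated and 8.43, 9.96 and 3.29 with IL-1, without overlap and not called (−0.92 ± 0.57, adjusted p = 0.233). Wnt7b (0, 5 and 0 reads against 0, 6 and 2) and Wnt9a (7, 0 and 10 against 0, 6 and 3) overlapped. After 72 h with IL-17A, Wnt6 had 6, 3 and 30 reads against 3 in each control and lay below the filter. There limma called 0 of 1 member, Wnt2b, against 7.97% of 13055 genes, an unadjusted p with the fold gave 0 against 20.6%, and edgeR and DESeq2 called 0 members, with 861 of 13083 and 2379 of 14259 genes called.

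Wnt signalling genes of the organoid epithelium were called with IL-1 at 72 h, where 23% of all genes were. Calls over all genes were 2922, 2170 and 2222 without untreated library 1, 2 or 4. With both controls that also stand at 12 h left out, almost all calls were lost, but only 1 control remained. Whether the calls below depend on those controls or on the number of controls was not tested. Of the Wnt target genes, Axin2 (−1.68 ± 0.33), Ascl2 (−2.38 ± 0.47), Myc (−1.36 ± 0.30) and Tcf7 (−1.09 ± 0.33) fell, 4 of 8 tested, with a list median of −1.52 against −0.00 for all genes. Lgr5, the R-spondin receptor of crypt base stem cells, fell by 4.39 ± 0.60 and Znrf3 by 1.37 ± 0.27, and all 4 crypt base markers fell. Fzd3 (−2.92 ± 0.45) and Fzd9 (−3.15 ± 0.65) fell, 2 of 9 Frizzled receptors, near the share of all genes. Wnt8b, a ligand outside the 10, had 0, 3 and 5 reads untreated and 30, 15 and 54 with IL-1, and it too passed the filter only through the treated libraries. With IL-17A at 72 h 0 of 9 Wnt target genes were called, and of the Frizzled receptors Fzd1 alone (1.20 ± 0.29). Calls over all genes there went from 1040 to between 3 and 3574 when 1 library was left out and to 5 with the sex term. All IL-17A 72 h libraries were male and 2 of 3 controls female, and the part of sex was not tested.

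Genes whose CPM followed a ligand most closely over the 12 stromal libraries were listed among 13986 genes, as a description over libraries that share genotype and segment. For Wnt5a these were Arap3 (Pearson r = 0.99), Bmp7 (0.98) and Srpx2 (0.97), and Bmp7 is itself a BMP ligand on the telocyte list. For Wnt2b they were Reck, Tlcd2 and Ppp1r15a (each 0.98), with Reck an inhibitor of metalloproteinases that also takes part in Wnt7 signalling. Wnt4 was followed by Krt222 (0.94), Dclk2 (0.92) and B3gat3 (0.92), and Wnt5b by Mapk8ip1 (0.95), Pgm5 (0.95) and Amigo1 (0.94). Wnt9a was followed by Mturn (0.95), Tchh (0.95) and Zdhhc8 (0.94) and Wnt6 by Parvb (0.93), Gde1 (0.92) and Abcc4 (0.91). Wnt7b and Wnt10a, not named in all stromal tables, and Wnt11, called in no stromal comparison, were left out.

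In the genome (GENCODE M21 on GRCm38, the assembly also called mm10) Wnt6 (ENSMUSG00000033227, chr1:74771892-74785322) and Wnt10a (ENSMUSG00000026167, chr1:74791516-74804179) are neighbours on the plus strand, 6193 bases apart with 0 genes between them. Both were called higher in distal GS4T cells. The 2 ligands with the clearest changes lie apart, Wnt2b (ENSMUSG00000027840) at chr3:104945272-104961921 on the minus strand and Wnt5a (ENSMUSG00000021994) at chr14:28504750-28527448 on the plus strand. Wnt4 (ENSMUSG00000036856) is at chr4:137277489-137299726 on the plus strand, Wnt9a (ENSMUSG00000000126) at chr11:59306928-59333552 on the plus strand and Wnt11 (ENSMUSG00000015957) at chr7:98835112-98855195 on the plus strand. Wnt2 (ENSMUSG00000010797, chr6:17988940-18030585) and Wnt5b (ENSMUSG00000030170, chr6:119432531-119544347) share a chromosome and the minus strand, far apart. Wnt7b (ENSMUSG00000022382) is at chr15:85535437-85582473 on the minus strand. Antisense or pseudogene exons overlap 8.80% of the exon bases of Wnt11, 6.61% of Wnt7b and 4.58% of Wnt5a, and the strand setting of the counts is not stated in the sources used here.

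Since 1 of the deleted genes encodes a Smad protein, windows of 250 bases before the RefSeq start of ligand genes were searched on both strands for letters that Smad proteins are known to bind, GGCGCC and CAGAC. RefSeq promoter entries matched 7 of the 10 members, those of Wnt5a, Wnt7b and Wnt10a not among them. GGCGCC was found in 9.59% of 32851 promoters, and in 56.3% of the 405 with at least 80% G and C, so that it follows base composition. CAGAC was found in 42.2% of promoters. RefSeq starts need not be those of GENCODE, and some windows lie inside the gene as given above: those of Wnt2, Wnt2b and Wnt4 in part, that of Wnt9a by its last 2 bases, and the second of Wnt11 and 2 of the 3 of Wnt5b wholly. The windows of Wnt2b, Wnt4 and Wnt9a and the first of 2 windows of Wnt11 held 2 copies of GGCGCC each, that of Wnt2 held 1, and those of Wnt6, the second of Wnt11 and all 3 of Wnt5b held 0. CAGAC was found once in the second window of Wnt11 and once in 2 of the 3 of Wnt5b. Of the ligands that fell in a GS4T segment, Wnt9a and, with the window furthest upstream, Wnt5b are printed as a pair, the first with GGCGCC and without CAGAC and the second the other way round, read 5′ to 3′ from RefSeq on GRCm38.p6, at chr11:59306680-59306927 on the plus strand and chr6:119544348-119544597 on the minus strand. Capitals mark GGCGCC in the first, and in the second GTCTG, which is CAGAC on the other strand. A match describes the sequence only.
Wnt9a: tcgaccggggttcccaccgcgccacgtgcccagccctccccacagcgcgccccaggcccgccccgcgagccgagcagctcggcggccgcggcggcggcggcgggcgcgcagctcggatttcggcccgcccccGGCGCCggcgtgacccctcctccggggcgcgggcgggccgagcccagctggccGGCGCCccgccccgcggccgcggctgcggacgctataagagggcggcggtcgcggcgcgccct
Wnt5b: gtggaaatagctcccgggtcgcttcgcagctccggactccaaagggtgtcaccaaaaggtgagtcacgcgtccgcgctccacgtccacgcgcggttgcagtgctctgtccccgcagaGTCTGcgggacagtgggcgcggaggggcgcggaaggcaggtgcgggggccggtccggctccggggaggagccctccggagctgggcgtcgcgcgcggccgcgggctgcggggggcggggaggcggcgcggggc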

How the data were processed

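The deposited values, called signal in the analysis files, are gene counts of the authors divided by a DESeq2 size factor of each library within each table. Reads had been mapped with STAR 2.5.3 to mm10, and DESeq2 1.28.1 was used. The counting program, annotation and strand setting are not stated in the sources used here. Whole reads were recovered by dividing by the value of 1 read. Tests used limma 3.58.1 on log2(value + 1) with a mean of at least 10, or on log2(CPM + 0.1) with a mean CPM of at least 0.5, with Benjamini-Hochberg adjustment over all genes tested. edgeR 4.0.16 and DESeq2 1.42.0 in R 4.3.3 were alternatives. Positions and exon lengths came from GENCODE M21 on GRCm38, and promoters from RefSeq on GRCm38.p6.

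Members and gene lists were chosen with earlier results of these data known. All 10 members were to be named in every account; where a member was untested or not named by a table, and in the segment difference of GA3T, the goblet cells, the organoids and the likeness, some are left out. From the pathway lists, genes called in a stromal comparison were named and others counted. Genes named for 72 h organoids were chosen after the values were seen. Smad4, Bmpr1a and Gli1 were named in stromal groups. For likeness, the 3 genes with the highest Pearson r over the stromal libraries were named, without gene models. The likeness of Wnt2 is not reported here. Added after seeing the data were the sex term, the 72 h comparison without both controls that also stand at 12 h, and the comparison without both stromal libraries low in Gli1.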

Additional observations from a re-analysis of the deposited data

How the results depend on the processing

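Counts of called members were recomputed 306 times over 19 comparisons, and 36 moved. Of 389 recomputed log2 fold changes of 26 called values, 344 kept the call, 45 lost it and 0 changed sign. Leaving out 1 library gave ranges of 1 to 6 called in proximal GS4T (5), 4 to 5 in distal GS4T (7), 0 to 2 in each segment of GA3T (0), 1 to 3 over both segments of GA3T (2), 0 to 1 with IL-1 at 72 h (1) and 0 to 0 for proximal against distal GWTT (3). An unadjusted p gave 2 in each segment of GA3T, 1 in proximal GS4M2, 3 for the GS4T effect and 1 for the GA3T effect between segments. DESeq2 gave 2 in each segment of GA3T. A mean of at least 50 gave 3 of 7 in proximal GS4T, 1 in proximal GA3T and 0 of 0 with IL-1 at 72 h. In proximal GA3T a pseudocount of 10 and no filter each gave 1. The replicate block gave 1 in proximal GA3T and 0 with IL-1 at 72 h. The sex term gave 1 in proximal GA3T, where it is the same fit as the replicate block. In distal GA3T and for the GWTT segments the sex term sets aside the only male library, which leaves 1 library in an arm. These settings are therefore not separate checks, although each was counted. For the GWTT segments, all stromal libraries with genotype as a term gave 1. Leaving out both 72 h controls that also stand at 12 h gave 0. With 1 library left in an arm, limma takes the spread from the other arm. The cause was not tested.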
